A study of Mus musculus with 6 samples.

Results

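The expression of 35 genes of endothelial cells was examined in left ventricles of mice. The genes were taken by name from a list of endothelial genes, drawn up with earlier results of these data known, and all 35 were found among the 17121 gene symbols of the RNA-sequencing table. The study compared 3 littermate control (LC) mice with 3 cardiomyocyte-specific NCoR1 knockout (CMNKO) mice, with 1 library per mouse. All mice were on a C57BL/6 strain background and 2 months old, and no treatment is named. CMNKO mice carried floxed NCoR1 and αMHC-Cre, a Cre recombinase driven by a promoter of cardiomyocytes, so that endothelial cells were not the cells targeted for deletion. The alleles of the LC mice beyond littermate control are not stated in the sources used here. Mice are named by the numbers in the labels, and values are given in the order LC 15, LC 25 and LC 26, then CMNKO 16, CMNKO 17 and CMNKO 18. The comparison asked whether transcripts of the vessel lining differed in ventricles whose cardiomyocytes lacked NCoR1.

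Endothelial cells line every vessel of the heart, and most of those in the ventricle lie in capillaries beside cardiomyocytes. They are joined by adhesion proteins such as VE-cadherin, and they respond to VEGF, angiopoietins and apelin through receptors on their surface. They release nitric oxide and von Willebrand factor, and in the heart they pass fatty acids from the blood to muscle. Their identity is held by transcription factors of the ETS and SoxF families, which include Erg, Fli1, Sox7, Sox17 and Sox18. RNA from whole ventricle mixes all cell types, so that a higher level from more endothelial cells and from more RNA per endothelial cell cannot be told apart.

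Promoter sequences are shown because ETS factors are known regulators of endothelial genes and 2 of them, Erg and Fli1, were among the 35 genes. RefSeq promoters of the GRCm38.p6 build were at hand for 17 of the 35 genes, with 23 start sites. The 250 bases before each start were searched on both strands for CAGGAAG, an ETS-type motif that reads CTTCCTG on the other strand. It was found before 7 of 23 start sites (30.4%), against 10.8% of 32851 promoters in the whole table, and the genes were Cd34, Egfl7, Emcn, Erg, Rasip1 and Robo4. The 150 bases before 1 start site each of 5 of these genes are printed 5′ to 3′ on the strand of the gene, with the motif in capitals.
Cd34, chr1:194938671-194938820, plus strand: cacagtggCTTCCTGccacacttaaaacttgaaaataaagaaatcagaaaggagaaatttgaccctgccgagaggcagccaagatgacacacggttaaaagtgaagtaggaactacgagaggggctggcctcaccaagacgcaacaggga
Egfl7, chr2:26583715-26583864, plus strand: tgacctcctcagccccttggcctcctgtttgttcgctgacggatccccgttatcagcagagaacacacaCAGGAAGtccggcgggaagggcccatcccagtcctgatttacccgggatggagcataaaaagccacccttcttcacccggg
Erg, chr16:95459349-95459498, minus strand: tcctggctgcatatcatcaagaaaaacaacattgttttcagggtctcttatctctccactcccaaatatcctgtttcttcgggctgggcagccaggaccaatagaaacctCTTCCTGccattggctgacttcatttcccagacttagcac
Rasip1, chr7:45627387-45627536, plus strand: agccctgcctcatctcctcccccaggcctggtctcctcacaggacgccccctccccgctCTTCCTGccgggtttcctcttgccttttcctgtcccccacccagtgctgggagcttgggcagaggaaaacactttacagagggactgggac
Robo4, chr9:37401822-37401971, plus strand: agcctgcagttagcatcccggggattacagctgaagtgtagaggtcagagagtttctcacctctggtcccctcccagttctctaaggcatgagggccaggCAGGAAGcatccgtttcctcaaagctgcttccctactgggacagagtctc
The motif began 142 bases before the start in Cd34, 81 in Egfl7, 40 in Erg, 91 in Rasip1 and 50 in Robo4. Another ETS-type motif, CCGGAAG, which differs from CAGGAAG only in the second base, was found before 0 of 23 start sites and in 6.91% of all promoters. The GATA-type motif AGATAA was found before 2 (8.7%) against 9.99%, and the TATA-type motif TATAAA before 3 (13.0%) against 12.4%. A loose MEF2-like pattern, in which any base was allowed at the middle positions, was found before 0 against 3.20%. The 3.20% is therefore not the share of promoters with a MEF2 site, which was not counted. A match is a description of these letters and was not set against binding data. The log2 fold changes of the genes with the motif ranged from 0.047 for Emcn to 0.58 for Cd34. Whether the motif goes with the size of the change was not tested.

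Counts per library totalled 6319488 to 8752609. Genes with too few reads for a test were left out, which kept 13040 genes and all 35 endothelial genes, whose counts ran from 15 to 6488 per library. Levels are given as CPM, counts per 1000000 counts of the library after TMM scaling. Ncor1 had 111, 102 and 90.7 CPM in LC mice and 50.5, 51.3 and 42.4 CPM in CMNKO mice. The groups did not overlap, and its log2 fold change was -1.07 with a standard error (SE) of 0.13 and an adjusted p of 0.00845. Every adjusted p is from the quasi-likelihood test of edgeR, corrected by Benjamini-Hochberg over all genes tested. The library names in the labels fall into 2 number series, and LC 25 and LC 26 form the second, which holds no CMNKO mouse. These 2 libraries stood apart from the other 4 on the first principal component of all genes, which held 48.7% of the variance. Mitochondrially encoded protein genes took 34.9% and 31.5% of counts in LC 25 and LC 26 and 25.6% to 26.9% in the other 4 libraries. What the number series stands for is not stated in the sources used here, so fold changes are also given from a fit with the series as a further term, in which the genotype difference rests on LC 15 against the 3 CMNKO mice.

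As a group, the endothelial genes stood higher in CMNKO ventricles, and few of them passed the test alone. The log2 fold change was above 0 for 35 of 35 genes, against 50.2% of all genes tested, and its median was 0.51, against 0.0012 for all genes. Aplnr, the receptor for apelin, and Mmrn2, a matrix glycoprotein deposited by endothelial cells, rose at an adjusted p under 0.05, and 0 of the 35 fell. Over all genes 0.268% were called higher in CMNKO mice and 0.337% lower. For 24 of the 35 genes the unadjusted p was under 0.05 with the higher level in CMNKO mice, against 10.1% of all genes, and for 0 with the lower level, against 8.8%. DESeq2 called 13 of the 35 genes higher (1.69% of all genes) and 0 lower. Every CMNKO mouse was above every LC mouse in 21 genes, against 11.2% of all genes. With the series term, 31 of 35 fold changes were above 0 (51.2% of all genes), the median was 0.31, and 0 genes were called (0.0153% of all genes). At an unadjusted p under 0.05 that fit held 8 genes with the higher level in CMNKO mice, against 3.51% of all genes. Both calls depended on single mice, as did calls over all genes. Without CMNKO 16 or without CMNKO 17, edgeR called 0 of all genes tested. Ncor1 was also lost without CMNKO 16, CMNKO 17 or CMNKO 18 (adjusted p = 0.0862, 0.0759 and 0.0536 from edgeR). With 1 mouse left out, log2 fold changes were 0.91 to 1.10 for Aplnr and 0.85 to 1.13 for Mmrn2. By edgeR Aplnr and Mmrn2 were both lost without LC 26 (adjusted p = 0.0647 and 0.0599) or without CMNKO 16 (0.0862 and 0.137), CMNKO 17 (0.117 and 0.155) or CMNKO 18 (0.0536 and 0.0757), and Mmrn2 without LC 25 (0.0524).

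The shift was seen in each CMNKO mouse, but the LC mice were not alike. Summed over the 35 genes, the level was 3240, 2455 and 2608 CPM in LC mice and 4024, 3353 and 3584 CPM in CMNKO mice. LC 15 was thus closer to the lowest CMNKO mouse than to LC 25 or LC 26. The median distance of the 35 genes from the LC mean on the log2 scale was 0.20, -0.089 and -0.053 in LC mice and 0.56, 0.38 and 0.50 in CMNKO mice. LC 15 lay above both other LC mice in 23 of 35 genes (65.7%), against 38.5% of all genes tested. Compared singly with all CMNKO mice, LC 15 was lower in 25 of 35 genes (71.4%, against 28.1% of all genes), and LC 25 and LC 26 were both lower in 28 (80.0%, against 26.6%). Without LC 15, edgeR called 22 of the 35 genes higher and 0 lower, against 11.8% of all genes higher, but genotype and library series then coincide and cannot be told apart.

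**Figure D1:**
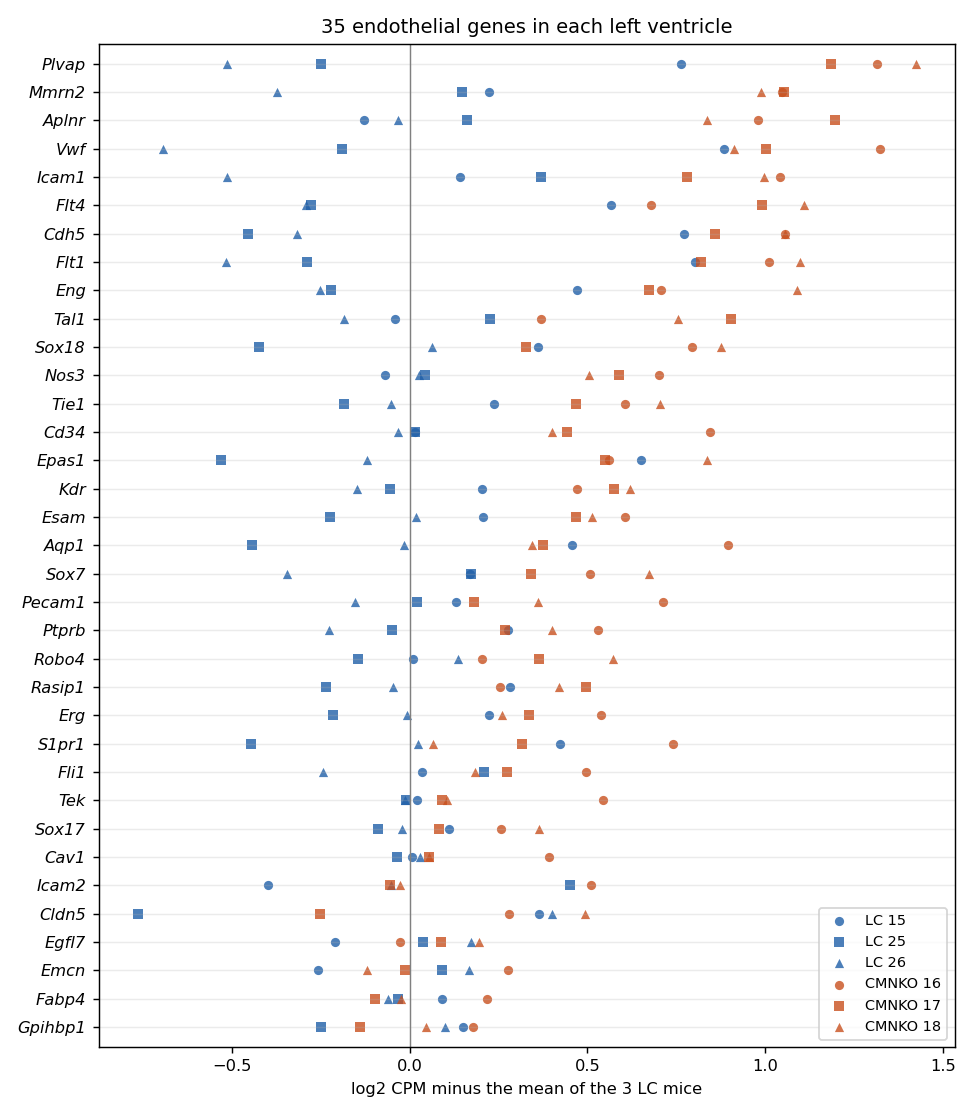
Level of each of the 35 genes in each mouse as log2 CPM minus the mean of the 3 LC mice, with genes ordered by fold change, LC mice in blue and CMNKO mice in orange. CMNKO points lie to the right of the LC points in 21 genes, and the blue circle of LC 15 often lies between the other LC mice and the CMNKO mice.

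Per transcript length, the genes spanned a wide range of levels. Divided by the length of the longest coding transcript (GENCODE vM21), Fabp4 was highest with 660 CPM per kb in LC mice, followed by Aqp1 with 153, Cav1 with 81.1 and Egfl7 with 71.4. Fabp4 carries fatty acids inside capillary endothelium and fat cells, Aqp1 is a water channel, Cav1 forms caveolae, and Egfl7 is a protein secreted by endothelium. The lowest were Flt4, a VEGF-C receptor, with 1.37 CPM per kb and Tal1, a transcription factor of blood and vessel precursors, with 1.08. Of the defining genes, Pecam1 had 34.9 CPM per kb and all of Cdh5, Kdr, Tek, Vwf and Nos3 were detected in every mouse. The 4 highest genes per length had log2 fold changes of 0.037 to 0.51, and 0 of them passed the test.

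**Figure D2:**
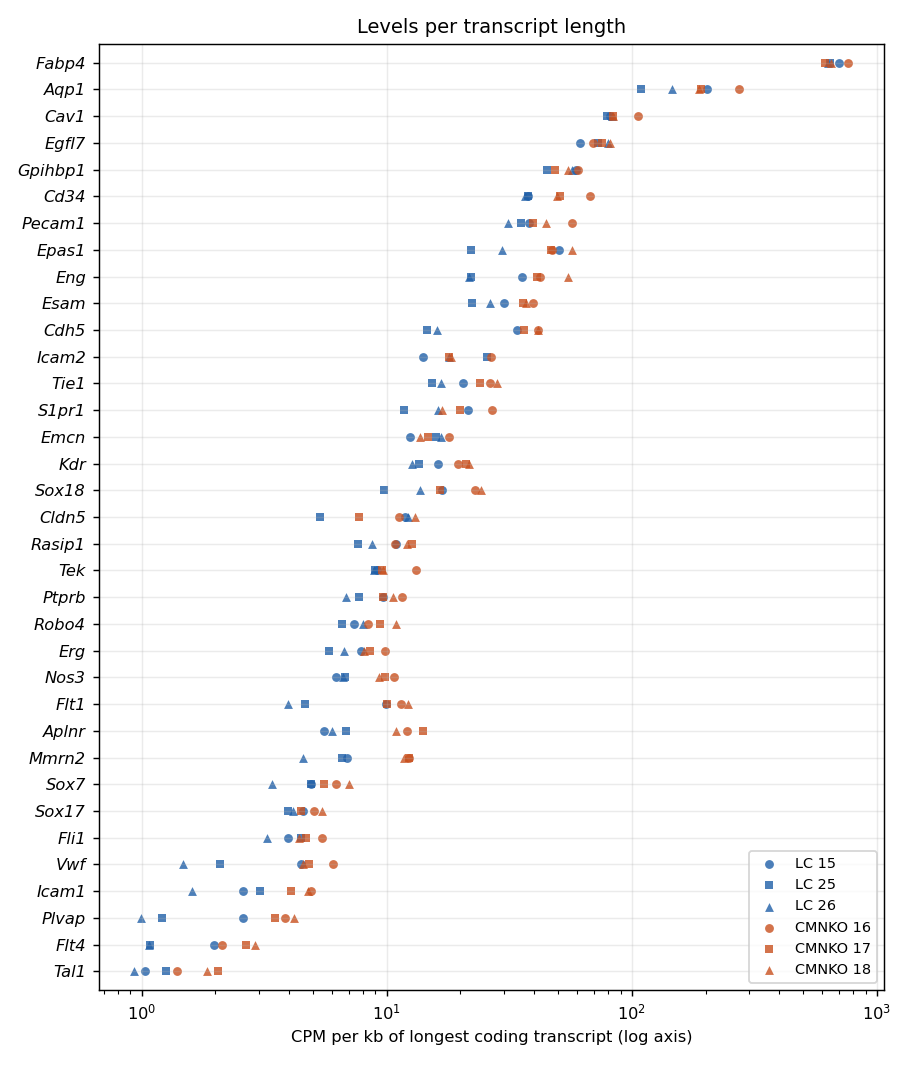
Level of each gene in each mouse in CPM per kb of the longest coding transcript, on a log axis, with genes ordered by the LC mean. Fabp4 stands at the top with 660 CPM per kb in LC mice and Tal1 at the bottom with 1.08.

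Among receptors coupled to G proteins, Aplnr rose and S1pr1 did not pass the test. Aplnr had 20.6, 25.3 and 22.0 CPM in LC mice and 44.7, 52.0 and 40.4 CPM in CMNKO mice. All LC mice were low and close together, LC 15 was the lowest of them, and the groups were far apart. The means were 22.6 ± 2.39 and 45.7 ± 5.84 CPM (SD, n = 3 and 3), with a log2 fold change of 1.01 (SE 0.15, adjusted p = 0.0165 by edgeR). With the series term its log2 fold change was 1.15 (adjusted p = 0.0531 from edgeR), the smallest adjusted p of the 35 genes there. S1pr1, a receptor for sphingosine 1-phosphate that steadies endothelial junctions, had 65.5, 35.7 and 49.6 CPM in LC mice and 81.7, 60.8 and 51.1 CPM in CMNKO mice. The groups overlapped through LC 15, and its log2 fold change of 0.36 (adjusted p = 0.388) was -0.019 with the series term, both from edgeR.

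Of the secreted proteins, Mmrn2 rose, Vwf had a higher mean that depended on LC 25 and LC 26, and Egfl7 overlapped between groups. Mmrn2 had 27.5, 26.1 and 18.1 CPM in LC mice and 48.8, 49.0 and 46.8 CPM in CMNKO mice. The 3 CMNKO mice were nearly equal, and all stood well above the highest LC mouse. Its means were 23.9 ± 5.05 and 48.2 ± 1.21 CPM (SD, n = 3 and 3), and the log2 fold change was 1.02 (SE 0.16, adjusted p = 0.0228 by edgeR). The series term gave 0.81 (adjusted p = 0.203 from edgeR). Vwf, which encodes von Willebrand factor, a carrier of clotting factor and a tether for platelets, had 39.3, 18.5 and 13.0 CPM in LC mice and 53.4, 42.6 and 40.1 CPM in CMNKO mice. LC 15 was just under CMNKO 18, and the other LC mice were far below. The log2 fold change of Vwf was 0.95 (SE 0.32, adjusted p = 0.158 from edgeR) and 0.21 with the series term. Egfl7 had 85.3, 101 and 111 CPM in LC mice and 96.9, 105 and 113 CPM in CMNKO mice. These values overlapped throughout, and its log2 fold change was 0.079 with a 95% interval of -0.22 to 0.38, and 0.30 with the series term.

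**Figure D3:**
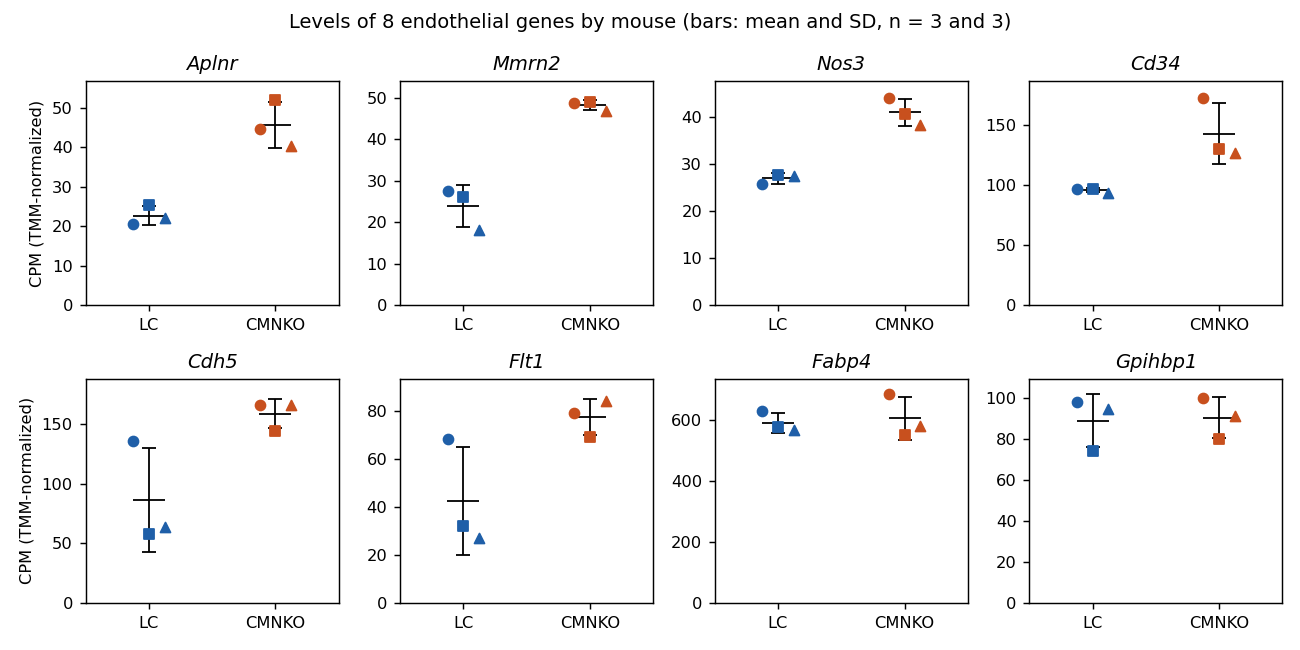
TMM-normalized CPM of 8 genes in each mouse, with circle, square and triangle for LC 15, LC 25 and LC 26 on the left of each panel and for CMNKO 16, CMNKO 17 and CMNKO 18 on the right, and bars for mean and SD (n = 3 and 3). The LC mice agree closely in Aplnr, Nos3 and Cd34, LC 15 is near the CMNKO mice in Cdh5 and Flt1, and the groups overlap in Fabp4 and Gpihbp1.

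The receptors for vessel growth factors and their partners numbered 7, and by edgeR 0 of them were called, with 6 at an unadjusted p under 0.05. Their log2 fold changes ran from 0.27 to 0.90 with a median of 0.59, and 6 of 7 had every CMNKO mouse above every LC mouse. Over all genes the shares were 10.1% higher at that unadjusted p and 11.2% with such a separation. Kdr, the main signalling receptor for VEGF, had 96.2, 80.4 and 75.4 CPM in LC mice and 116, 125 and 128 CPM in CMNKO mice. The groups were apart, with a log2 fold change of 0.55 (SE 0.13, adjusted p = 0.0880 from edgeR) and 0.35 with the series term. Flt1, which binds VEGF and limits its action, had 68.5, 32.0 and 27.3 CPM in LC mice and 79.0, 69.3 and 84.0 CPM in CMNKO mice. LC 15 nearly reached CMNKO 17, while LC 25 and LC 26 were much lower. The log2 fold change of Flt1 was 0.87 (SE 0.28, adjusted p = 0.151 from edgeR), and 0.18 with the series term. Flt4 had 12.3, 6.76 and 6.69 CPM in LC mice and 13.3, 16.6 and 18.1 CPM in CMNKO mice. It showed the same split of the LC mice, with a log2 fold change of 0.90 (adjusted p = 0.110 from edgeR) and 0.37 with the series term.

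Tie1 and Tek, the receptor tyrosine kinases of the angiopoietin system, differed in size. Tie1, which partners with Tek, had 86.4, 64.5 and 70.7 CPM in LC mice and 112, 101 and 120 CPM in CMNKO mice. The groups were apart, and its log2 fold change was 0.59 (SE 0.14, adjusted p = 0.0888 from edgeR) and 0.36 with the series term. Tek, the angiopoietin receptor itself, had 42.4, 41.5 and 41.4 CPM in LC mice and 61.0, 44.6 and 44.9 CPM in CMNKO mice. Its LC mice were nearly equal, and CMNKO 16 alone stood well above them. The log2 fold change of Tek was 0.27 (SE 0.15, adjusted p = 0.347 from edgeR) and 0.25 with the series term, and whether Tek and Tie1 differ in fold change was not tested. Eng, a co-receptor for ligands of the TGF-β family, had 122, 75.6 and 73.9 CPM in LC mice and 144, 141 and 188 CPM in CMNKO mice. LC 15 lay between the other LC mice and the CMNKO mice, and the log2 fold change was 0.80 (SE 0.20, adjusted p = 0.0958 from edgeR) and 0.36 with the series term. Ptprb, a phosphatase that acts on Tek and VE-cadherin, had 81.5 to 116 CPM in LC mice and 115 to 138 CPM in CMNKO mice. It was the only one of the 7 whose groups overlapped, since LC 15 reached CMNKO 17, and its log2 fold change was 0.39 and, with the series term, 0.13.

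Of the 9 genes of cell junctions and surface identity, edgeR called 0, with 6 higher at an unadjusted p under 0.05, against 10.1% of all genes. In 6 of the 9 every CMNKO mouse was above every LC mouse, against 11.2% of all genes. The median log2 fold change of the 9 genes was 0.43, in a range of 0.047 to 0.94. Cd34, a sialomucin of capillary endothelium and of stem and stromal cells, had 96.7, 96.7 and 93.5 CPM in LC mice and 172, 130 and 126 CPM in CMNKO mice. The 3 LC mice agreed closely and all CMNKO mice were above them, CMNKO 16 farthest. Its log2 fold change was 0.58 (SE 0.14, adjusted p = 0.0921 from edgeR) and 0.56 with the series term. Icam1, which binds leukocyte integrins, had 6.55, 7.72 and 4.06 CPM in LC mice and 12.4, 10.3 and 12.1 CPM in CMNKO mice. The groups were apart at a low level, with a log2 fold change of 0.94 (SE 0.24, adjusted p = 0.0953 from edgeR) and 0.83 with the series term.

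Pecam1, an adhesion protein of endothelial cells and platelets, had 131, 121 and 107 CPM in LC mice and 196, 136 and 154 CPM in CMNKO mice. The groups were apart by a small gap, and CMNKO 16 was the highest. Its log2 fold change was 0.43 (SE 0.15, adjusted p = 0.177 from edgeR) and 0.31 with the series term. Cdh5, which encodes VE-cadherin of the adherens junction, had 136, 58.1 and 64.0 CPM in LC mice and 166, 145 and 166 CPM in CMNKO mice. LC 15 was near the CMNKO mice and far above the other LC mice. The log2 fold change of Cdh5 was 0.88 (SE 0.27, adjusted p = 0.138 from edgeR) and 0.22 with the series term. Esam, an adhesion protein of tight junctions, had 56.0, 41.5 and 49.2 CPM in LC mice and 74.0, 67.2 and 69.3 CPM in CMNKO mice. Its groups were apart, with a log2 fold change of 0.52 (adjusted p = 0.104 from edgeR) and 0.33 with the series term.

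In the rest of this class the differences were smaller. Robo4, a guidance receptor of endothelium, had 32.7 to 39.7 CPM in LC mice and 41.7 to 53.9 CPM in CMNKO mice, with the groups apart and a log2 fold change of 0.38 in both fits. Icam2, a constitutive ligand of leukocyte integrins, had 18.1, 32.8 and 23.1 CPM in LC mice and 34.2, 23.1 and 23.5 CPM in CMNKO mice. The highest LC mouse was above 2 of the CMNKO mice, unlike for Icam1, although the difference between the 2 genes was not tested. Cldn5, a claudin of tight junctions, had 7.56 to 17.3 CPM in LC mice and 10.9 to 18.5 CPM in CMNKO mice. Emcn, a sialomucin of capillaries and veins, had 32.1 to 43.3 CPM in LC mice and 35.4 to 46.7 CPM in CMNKO mice. Both overlapped between groups, and the 95% interval of the log2 fold change of Emcn reached from -0.30 to 0.40. The log2 fold changes of Icam2, Cldn5 and Emcn were 0.13, 0.11 and 0.047, and with the series term 0.58, -0.15 and 0.32.

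Nos3, the endothelial nitric oxide synthase, had 25.7, 27.8 and 27.5 CPM in LC mice and 44.1, 40.8 and 38.4 CPM in CMNKO mice. The mice of each genotype agreed closely, and the groups were apart. The means were 27.0 ± 1.13 and 41.1 ± 2.87 CPM (SD, n = 3 and 3), and the log2 fold change of 0.61 (SE 0.13, adjusted p = 0.0681 from edgeR) was 0.68 with the series term. In the GENCODE vM21 annotation 25.2% of the exon bases of Nos3 lie over the antisense gene Gm15587 and 7.12% over Atg9b, and since the strand setting of the counting is not given, reads of these genes cannot be told apart. Exons of Rasip1, Sox17, Icam1, Egfl7, Cd34 and Eng also overlap other genes. For Rasip1 the shares of exon bases were 20.4% (Izumo1), 15.6% (A030001D20Rik) and 6.93% (Gm45437). They were 16.8% (Gm37587) for Sox17, 11.7% (Gm47079) for Icam1 and at most 7.37% per overlapping gene in the rest. Plvap, which forms the diaphragms of caveolae and fenestrae, had 5.15, 2.41 and 1.97 CPM in LC mice and 7.67, 6.99 and 8.29 CPM in CMNKO mice. It had the largest log2 fold change of the 35 genes, 1.28 (SE 0.32, adjusted p = 0.0939 from edgeR), which was 0.57 with the series term. These levels rested on 15 to 69 counts per library. Cav1 had 224, 217 and 227 CPM in LC mice and 292, 231 and 231 CPM in CMNKO mice. CMNKO 16 was clearly above the LC mice and the other CMNKO mice barely so, with a log2 fold change of 0.18 (adjusted p = 0.469 from edgeR) and 0.17 with the series term. Rasip1, which regulates the endothelial cytoskeleton, overlapped between groups at 24.5 to 35.1 and 34.5 to 40.8 CPM, with a log2 fold change of 0.38 that was 0.11 with the series term.

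Of the genes of lipid and water transport, Fabp4 and Gpihbp1 had the smallest fold changes of all 35 genes. By edgeR 0 of 3 were called, with 1 higher at an unadjusted p under 0.05, against 10.1% of all genes. Fabp4 had 629, 578 and 567 CPM in LC mice and 687, 552 and 580 CPM in CMNKO mice. The groups overlapped fully, and the log2 fold change was 0.037 with a 95% interval of -0.25 to 0.33. Gpihbp1, which carries lipoprotein lipase to the capillary lumen, had 98.0, 74.2 and 94.5 CPM in LC mice and 99.8, 80.1 and 91.2 CPM in CMNKO mice. Its log2 fold change of 0.024 had a 95% interval of -0.29 to 0.34, and with the series term the values were -0.12 for Gpihbp1 and -0.053 for Fabp4. Aqp1 had 532, 286 and 384 CPM in LC mice and 721, 503 and 492 CPM in CMNKO mice. LC 15 was above 2 of the CMNKO mice, and the log2 fold change of 0.51 (SE 0.22, adjusted p = 0.246 from edgeR) was 0.10 with the series term. Fabp4 is also made by adipocytes, and the 6 adipocyte markers together reached 2.03, 0 and 0 CPM in LC mice and 23.6, 10.6 and 1.00 CPM in CMNKO mice. Adipoq was at 0 in all LC mice and in CMNKO 18, and the part of adipocyte RNA in the Fabp4 level was not tested. Cav1, Aqp1 and Epas1 are also expressed by cell types other than endothelium, and the part of those cells in their levels was likewise not tested.

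The 7 transcription factors had log2 fold changes from 0.24 to 0.71, with a median of 0.51. By edgeR 0 were called and 5 were higher at an unadjusted p under 0.05, against 10.1% of all genes. Tal1 had 4.37, 5.31 and 3.93 CPM in LC mice and 5.89, 8.66 and 7.78 CPM in CMNKO mice. The groups were apart at a low level, with a log2 fold change of 0.71 (SE 0.23, adjusted p = 0.155 from edgeR) and 0.76 with the series term. Epas1, a hypoxia-inducible factor abundant in endothelium, had 278, 122 and 162 CPM in LC mice and 261, 259 and 316 CPM in CMNKO mice. LC 15 was above 2 of the 3 CMNKO mice, and the log2 fold change of 0.57 (adjusted p = 0.245 from edgeR) was 0.0030 with the series term.

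The SoxF genes, which act in arterial and lymphatic development, were compared next. Sox7 had 16.2, 16.2 and 11.3 CPM in LC mice and 20.6, 18.3 and 23.1 CPM in CMNKO mice, with the groups apart and a log2 fold change of 0.51. Sox17 had 14.8, 12.9 and 13.5 CPM in LC mice and 16.5, 14.5 and 17.7 CPM in CMNKO mice. Sox18 had 27.3, 15.8 and 22.2 CPM in LC mice and 37.0, 26.7 and 39.2 CPM in CMNKO mice. In the last 2 the groups overlapped by 1 mouse each, with log2 fold changes of 0.24 and 0.66. Of the ETS factors, Erg had 25.6, 18.8 and 21.8 CPM in LC mice and 31.9, 27.7 and 26.2 CPM in CMNKO mice. Fli1 had 13.1, 14.8 and 10.7 CPM in LC mice and 18.1, 15.5 and 14.6 CPM in CMNKO mice. Erg was apart by a small gap, Fli1 overlapped, and their log2 fold changes were 0.38 and 0.32. With the series term the log2 fold changes were 0.35 for Sox7, 0.13 for Sox17, 0.33 for Sox18, 0.16 for Erg and 0.30 for Fli1. The adjusted p of the 5 genes ran from 0.150 to 0.414 by edgeR.

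**Figure D4:**
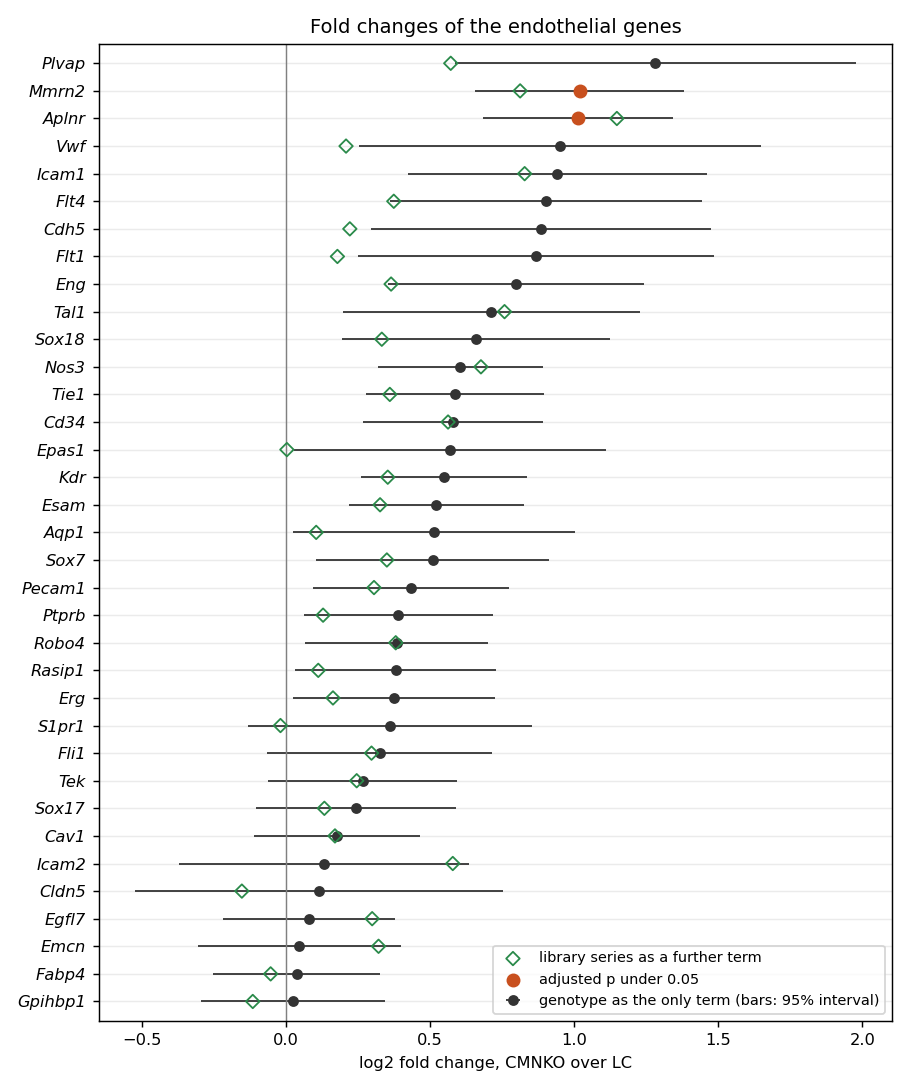
Log2 fold change of each gene, CMNKO over LC, with its 95% interval from the fit on genotype (filled circles) and the value with the library series as a further term (open diamonds). Orange marks Aplnr and Mmrn2, the genes with an adjusted p under 0.05, and the intervals of 11 of the 35 genes include 0.

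All but 12 of the 35 genes fell into 3 sets by bounds set after the values were known. In Aplnr, Cd34, Icam1, Mmrn2, Nos3, Plvap, Robo4 and Tal1 all LC mice lay below all CMNKO mice, and the log2 fold change with the series term was at least 0.38. In Aqp1, Cdh5, Epas1, Erg, Flt1, Ptprb, Rasip1, S1pr1 and Vwf it was at least 0.36 on genotype alone but at most 0.22 with the series term. In Cldn5, Egfl7, Emcn, Fabp4, Gpihbp1 and Icam2 the groups overlapped with log2 fold changes of 0.13 or less on genotype alone, and of -0.15 for Cldn5 to 0.58 for Icam2 with the series term. The other 12 genes lay between, with log2 fold changes of 0.18 to 0.90 and, with the series term, of 0.13 to 0.37. These sets were chosen by their values and carry no test.

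Related genes of the vessel system were counted in the same fit. The shares over all genes were 10.1% higher and 8.8% lower at an unadjusted p under 0.05. Every CMNKO mouse was above every LC mouse in 11.2% of all genes. Of 11 ligands and co-receptors of the VEGF, angiopoietin and apelin systems, edgeR called 0 (3 higher and 2 lower at an unadjusted p under 0.05), and the median log2 fold change was 0.23. Nrp2, a VEGF-C and semaphorin co-receptor, had 30.7, 21.7 and 19.7 CPM in LC mice and 41.2, 47.8 and 41.8 CPM in CMNKO mice. Its groups were apart, with a log2 fold change of 0.86 (adjusted p = 0.0572 from edgeR) and 0.50 with the series term. Angpt1, the activating ligand of Tek, had 31.7, 46.5 and 38.3 CPM in LC mice and 24.2, 23.8 and 24.6 CPM in CMNKO mice. Here all CMNKO mice were below all LC mice, with a log2 fold change of -0.68 (adjusted p = 0.0822 from edgeR) and -0.39 with the series term. Apln, the ligand of Aplnr, overlapped between groups at 7.88 to 14.7 and 8.67 to 16.3 CPM (log2 fold change 0.23, and 0.50 with the series term).

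Of 11 Notch and ephrin genes of vessels, edgeR called 0 (6 higher at an unadjusted p under 0.05), with a median log2 fold change of 0.53 that was 0.22 with the series term. Dll4 and Jag1, ligands of Notch, had the smallest p of this list, with log2 fold changes of 0.68 (adjusted p = 0.0835) and 0.74 (adjusted p = 0.0894 from edgeR), and of 0.53 and 0.76 with the series term. Of 21 further endothelial genes tested, edgeR called 0 (10 higher at an unadjusted p under 0.05), the median was 0.33 (0.24 with the series term), and 12 had every CMNKO mouse above every LC mouse. Cd93, a surface lectin-like receptor, had 52.3, 54.9 and 50.1 CPM in LC mice and 97.2, 86.5 and 69.9 CPM in CMNKO mice, with the groups apart and a log2 fold change of 0.69 in both fits (adjusted p = 0.0600 and 0.268 from edgeR). Elk3, an ETS factor, had a log2 fold change of 0.71 (adjusted p = 0.0754 from edgeR) and 0.47 with the series term.

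Among 5 flow-responsive genes tested, the transcription factor Klf2 rose, with 21.8, 20.4 and 16.8 CPM in LC mice and 50.1, 34.0 and 37.9 CPM in CMNKO mice. The groups were apart, and the log2 fold change of Klf2 was 1.05 (adjusted p = 0.0287 from edgeR) and 0.90 with the series term (adjusted p = 0.245). Of 6 genes of leukocyte adhesion and haemostasis tested, Tfpi fell and 0 rose. Tfpi, an inhibitor of the tissue factor pathway of clotting, had 77.8, 87.4 and 83.6 CPM in LC mice and 34.9, 28.4 and 37.4 CPM in CMNKO mice. All CMNKO mice were below all LC mice, with a log2 fold change of -1.30 (SE 0.14, adjusted p = 0.00845 from edgeR) and -1.21 with the series term, where it was still called (adjusted p = 0.0158). Thbd, which encodes thrombomodulin, had a log2 fold change of 0.79 (adjusted p = 0.0805 from edgeR) and 0.51 with the series term.

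Of 9 genes of capillary lipid transport, edgeR called 0 (1 higher and 1 lower at an unadjusted p under 0.05), and the median of 0.095 was near that of all genes. Cd36, a fatty acid transporter that cardiomyocytes also make, had 1454, 1701 and 1743 CPM in LC mice and 1394, 1215 and 1263 CPM in CMNKO mice, with a log2 fold change of -0.34 (adjusted p = 0.217 from edgeR) and -0.17 with the series term. Slc27a3 had a log2 fold change of 1.00 (adjusted p = 0.241 from edgeR) and 1.32 with the series term, at 0.483 to 1.82 CPM. The lists of arterial and of venous and lymphatic endothelium, with 6 genes tested in each, had 0 calls by edgeR (4 higher in the first, and 1 higher and 1 lower in the second at an unadjusted p under 0.05) and medians of 0.70 and 0.38, which were 0.26 and -0.18 with the series term. Their smallest p belonged to Fbln5 (log2 fold change 0.71, adjusted p = 0.101) and Stmn2 (0.72, adjusted p = 0.146) among arterial genes, and to Prox1 (-0.46, adjusted p = 0.153) and Lyve1 (0.93, adjusted p = 0.198 from edgeR) among venous and lymphatic ones. With the series term these 4 log2 fold changes were 0.40, 0.70, -0.32 and 0.24. Prox1 had a mean of 39.8 CPM in LC mice and Lyve1 one of 11.9 CPM. Which cells of the ventricle made these transcripts was not tested.

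The level of each gene was also divided by that of Pecam1 in the same library, a ratio that does not depend on library scaling and was chosen after the values were seen. Of 34 ratios, 2 were higher in every CMNKO mouse than in every LC mouse, 3 were lower and 29 overlapped. The share of all genes with such a separation of the ratio was not computed. By CPM it was 11.2% of all genes above and 12.3% below. The ratio for Aplnr was 0.157, 0.208 and 0.205 reads per Pecam1 read in LC mice and 0.228, 0.383 and 0.263 in CMNKO mice. For Mmrn2 it was 0.210, 0.215 and 0.168 in LC mice and 0.249, 0.361 and 0.305 in CMNKO mice. In the fit Aplnr and Mmrn2 had log2 fold changes of 1.01 and 1.02, against 0.43 for Pecam1. Their higher ratios follow from these values and add no separate support. The ratio for Fabp4 was 4.80, 4.76 and 5.27 in LC mice and 3.50, 4.07 and 3.78 in CMNKO mice. For Cav1 and Gpihbp1 it was likewise lower, at 1.49 to 1.70 against 1.71 to 2.11 and at 0.509 to 0.594 against 0.611 to 0.879. Fabp4, Cav1 and Gpihbp1 had log2 fold changes of 0.037, 0.18 and 0.024 in the fit, so their lower ratios follow in the same way. With 3 mice against 3 the smallest p of a two-sided exact permutation test is 0.1, and over 34 ratios the smallest adjusted p was 0.523, so that no ratio could pass the test.

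**Figure D5:**
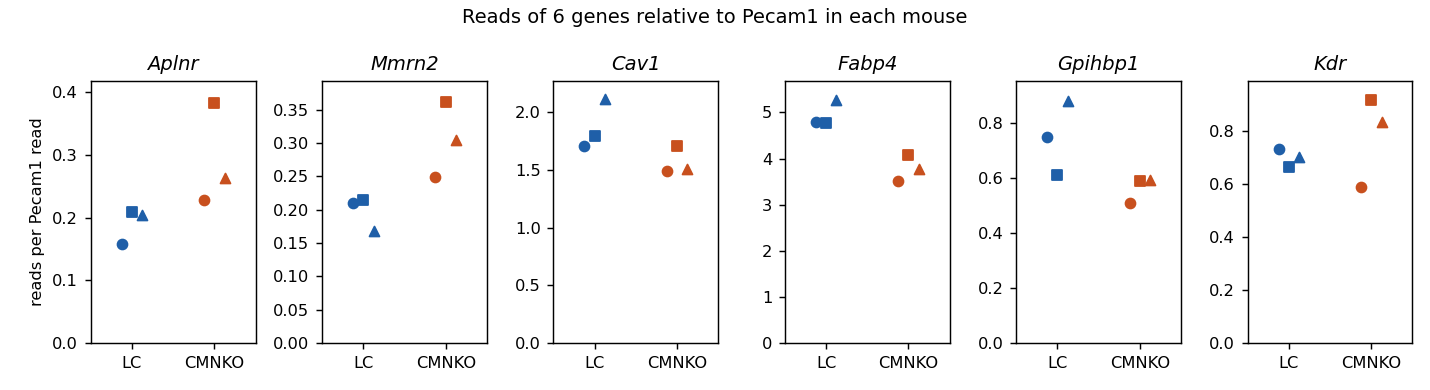
Reads of 6 genes per Pecam1 read in each mouse, with LC mice on the left of each panel and CMNKO mice on the right, and circle, square and triangle for LC 15, LC 25 and LC 26 and for CMNKO 16, CMNKO 17 and CMNKO 18. Aplnr and Mmrn2 are higher in all CMNKO mice, Cav1, Fabp4 and Gpihbp1 are lower, and Kdr overlaps.

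Markers of fibroblasts, smooth muscle, pericytes and macrophages had median log2 fold changes above 0, and those of cardiomyocytes and blood cells below 0. Over all genes, 10.1% were higher and 8.8% lower in CMNKO mice at an unadjusted p under 0.05 by edgeR. By edgeR 0 of the genes tested from the lists of cardiomyocytes, fibroblasts, smooth muscle, pericytes, macrophages and blood cells were called, and at an unadjusted p under 0.05 they held 3 lower cardiomyocyte, 2 higher fibroblast, 2 higher smooth muscle, 3 higher pericyte, 1 higher macrophage, 1 higher blood cell and 3 lower blood cell genes. The median log2 fold change was 0.28 for 6 fibroblast, 0.78 for 3 smooth muscle, 0.43 for 5 pericyte and 0.53 for 5 macrophage markers, and 0.22, 0.13, 0.028 and -0.032 with the series term. It was -0.14 for 8 cardiomyocyte and -0.32 for 7 blood cell markers, and -0.13 and -0.047 with the series term. The summed level of fibroblast markers was 432 to 550 CPM in LC mice and 485 to 800 CPM in CMNKO mice. That of macrophage markers was 54.4 to 104 and 95.0 to 131 CPM, and that of smooth muscle markers 30.2 to 81.3 and 71.1 to 102 CPM. Pericyte markers summed to 408 to 567 and 493 to 508 CPM, and cardiomyocyte markers to 60371 to 73884 and 62889 to 69156 CPM, and blood cell markers to 305 to 433 and 275 to 309 CPM. No list of the marker genes was at 0 apart from the adipocyte list in LC 25 and LC 26. The part of cell makeup in the endothelial shift was not tested.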

How the data were processed

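RNA was extracted from left ventricles with TRIzol, and TruSeq libraries were sequenced and aligned to the mouse genome by the authors, whose build the submitters' processing notes name as mm8. The deposited values are raw read counts per gene symbol, and the aligner, the counting and its strand setting were not stated in the sources used here. A second table with the authors' own fold changes and FDR values was not used. Per-sample columns left unused numbered 0.

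The 35 genes and the 15 related lists were chosen with earlier results of these data known. The counts were fitted with edgeR 4.0.16 under R 4.3.3 (filterByExpr with its default minimum count of 10, TMM scaling, quasi-likelihood test on genotype), with Benjamini-Hochberg correction over 13040 genes and a threshold of 0.05. Values for every mouse were given for the 10 genes with the smallest p, the 4 highest and 2 lowest per length, the defining genes and gene families. They were also given for genes that other cell types express (Fabp4, Cd34, Cav1, Epas1 and Aqp1) and, outside these classes, for S1pr1 and Gpihbp1. Of each related list of vessel genes, each called gene or the 2 with the smallest p were named. Markers of other cells were given as lists, with only Adipoq named. The bounds of the 3 sets were set after the values were known. Apln and Thbd were named outside this rule after their values were seen. Log2 levels by mouse used a prior count of 2. Alternatives were DESeq2 1.42.0, limma-voom (limma 3.58.1), other scalings and filters, the library series as a term, no mitochondrially encoded genes, CMNKO 18 alone and each mouse left out. The fits were tested on simulated data with known changes, of which they recovered all of the largest and missed most of the smallest. Every simulated gene had the same spread, and no split by library series was simulated. How the fits behave on the real data was therefore not shown. The labels number the samples as single mice, and their litters are not stated. Promoters were taken from RefSeq (GRCm38.p6) and lengths and exon overlaps from GENCODE vM21, and no coordinate was moved between builds.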

Additional observations from a re-analysis of the deposited data

How the results depend on the processing

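The median log2 fold change of the endothelial genes stayed above 0 in all alternatives run, at 0.49 with upper-quartile scaling, 0.63 with library totals alone (which put the median of all genes at 0.12), 0.31 with the series term and 0.43 to 0.59 with 1 mouse left out. Of the 35 genes 13 were called higher by DESeq2, 0 with the series term, 0 with CMNKO 18 alone against LC mice and 0 to 22 with 1 mouse left out, and 0 were called lower in any of these. Calls over all genes numbered 79 (35 higher, 44 lower), 128 with upper-quartile scaling (59 and 69), 44 with library totals (24 and 20), 367 with DESeq2 (220 and 147), 22 with the series term (2 and 20), 0 with CMNKO 18 alone (792 before adjustment, by the same threshold) and from 0 up to 2624 on leaving out 1 mouse. Aplnr and Mmrn2 were called in 10 and 9 of 16 alternatives by each fit's own adjusted p, which ran from 3.92e-05 and 7.09e-05 to 0.766. Ncor1 had log2 fold changes of -1.15 to -0.99 with 1 mouse left out and -1.25 with CMNKO 18 alone (adjusted p = 0.515, with the spread taken from the LC mice). Signs turned for genes with log2 fold changes of 0.13 or less on genotype alone, and for S1pr1, which was at 0.36 there. Gpihbp1 was at -0.0074 with upper-quartile scaling. With the series term Gpihbp1 was at -0.12, Cldn5 at -0.15, Fabp4 at -0.053 and S1pr1 at -0.019. With CMNKO 18 alone Emcn was at -0.13, Icam2 at -0.068 and Fabp4 at -0.025. With 1 mouse left out the ranges were -0.092 to 0.10 for Gpihbp1, -0.18 to 0.31 for Cldn5, -0.062 to 0.10 for Fabp4, -0.023 to 0.17 for Egfl7, -0.079 to 0.13 for Emcn and -0.082 to 0.39 for Icam2. The cause was not tested. Over the 35 genes and all alternatives, 498 values kept direction and side of the threshold, 13 lost the call, 31 gained it and 18 changed sign. No paired analysis was possible because no mouse number occurs in both genotypes. Depth limits the lowest genes most, such as Plvap with 15 counts in LC 25 and in LC 26.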
